A study of Homo sapiens with 12 samples.

Results

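The interferon signalling receptors, STATs and IRFs examined here are 9 genes listed by symbol: the receptor chains IFNAR1, IFNAR2 and IFNGR1, the kinases JAK1 and TYK2, and the factors STAT2, IRF1, IRF7 and IRF9. Every symbol was found, among 23645 gene symbols in all, and 9 of the 9 passed the filter on low counts that left 16538 genes tested. The study changed TRMT112, an activator subunit shared by several methyltransferases that modify rRNA, tRNA and a termination factor, in 3 human triple-negative breast cancer cell lines and sequenced the RNA that sedimented with polysomes. In MDA-MB-231 and SUM159, cells carrying a TRMT112 shRNA (KD) were compared with cells labelled EV CTRL, which the study's methods describe as carrying a non-silencing shRNA in the same GIPZ vector, both selected with puromycin. In BT549, cells with a TRMT112 expression plasmid (OE) were compared with cells carrying the empty pReceiver-M02 plasmid (EV), both selected with G418. Each of the 6 groups had 2 libraries, and neither the labels nor the methods name an interferon treatment. The methods name a single shRNA product, without saying how many hairpins it held, and a single expression plasmid. The lines were grown in different media. The labels do not say whether 2 libraries of a group came from separate cultures, so p-values measure only the spread between these libraries.

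Type I interferons bind a receptor made of IFNAR1 and IFNAR2, which carry the kinases TYK2 and JAK1. Phosphorylated STAT2 then pairs with another STAT and with IRF9 to form ISGF3, which binds interferon-stimulated response elements (ISREs) in the promoters of interferon-stimulated genes. Type II interferon signals through IFNGR1 and JAK1 to STAT dimers that bind gamma-activated sites (GAS). STAT2, IRF1, IRF7 and IRF9 are themselves interferon-induced, IRF1 chiefly through a GAS and IRF7 through ISGF3, whereas the receptors and kinases are usually present beforehand. The 5 receptors and kinases are therefore set beside the 4 induced factors in what follows.
On GRCh38 (GENCODE 44), IFNAR2 (chr21:33205282-33265675) and IFNAR1 (chr21:33324387-33359864) are neighbours on the plus strand, and IRF9 (chr14:24161234-24168043) is also on the plus strand. The other genes lie on the minus strand: IFNGR1 (chr6:137197483-137219449), JAK1 (chr1:64833223-65067754), TYK2 (chr19:10350533-10380608), STAT2 (chr12:56341597-56360203), IRF1 (chr5:132440440-132508719) and IRF7 (chr11:612553-615983).

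Promoters of the induced factors are shown because these genes had the largest differences of the 9 in BT549. RefSeq promoter windows (GRCh38.p14, 300 bases, 250 before and 50 from the annotated start) matched 7 of the 9 symbols, all but IFNAR2 and IRF7. Capitals mark the GAS core TTCNNNGAA, which reads the same on both strands. It was present in IRF1 from position -124 to -116 and in IRF9 from -63 to -55 relative to the start, did not overlap another match, and was not present in STAT2.
IRF1, chr5:132490724-132491023, minus strand: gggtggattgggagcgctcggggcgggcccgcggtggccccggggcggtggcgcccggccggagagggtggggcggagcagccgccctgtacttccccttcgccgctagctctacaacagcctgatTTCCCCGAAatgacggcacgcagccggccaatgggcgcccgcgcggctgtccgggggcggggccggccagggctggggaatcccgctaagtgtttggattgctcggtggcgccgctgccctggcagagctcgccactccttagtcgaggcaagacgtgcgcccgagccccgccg
IRF9, chr14:24161015-24161314, plus strand: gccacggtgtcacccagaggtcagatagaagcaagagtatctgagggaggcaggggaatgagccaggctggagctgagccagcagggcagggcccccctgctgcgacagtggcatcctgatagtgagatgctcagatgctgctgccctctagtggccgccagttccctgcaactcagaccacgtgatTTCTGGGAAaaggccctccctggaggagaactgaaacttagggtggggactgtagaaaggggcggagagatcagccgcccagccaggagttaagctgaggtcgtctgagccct
STAT2, chr12:56360058-56360357, minus strand: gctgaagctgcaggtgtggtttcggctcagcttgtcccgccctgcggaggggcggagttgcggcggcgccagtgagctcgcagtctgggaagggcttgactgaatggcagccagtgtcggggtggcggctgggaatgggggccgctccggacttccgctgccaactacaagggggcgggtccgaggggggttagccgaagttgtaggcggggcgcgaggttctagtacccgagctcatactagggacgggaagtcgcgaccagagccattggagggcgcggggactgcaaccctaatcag
The GAS core occurred in 7.66% of all 35116 windows of this length. Of the members with a window, 2 of the 3 induced factors and 0 of the 4 receptors and kinases held it. The ISRE core, searched on both strands as GAAA, any 2 bases and GAAA again, occurred in 3.57% of all windows and in none of those of the members, which says only that these letters are not in these windows.

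The 12 libraries held between 22954226 and 27434677 counts. TRMT112 behaved as labelled: it had 4147 and 3938 normalized counts in MDA-MB-231 EV against 1764 and 1682 in KD, fell by 0.76 on the log2 scale in SUM159 KD and was 0.48 higher in BT549 OE. PGR was at 0 in 5 groups and at 3.3 and 10 in BT549 EV, ERBB2 ranged from 1385 to 3420, and the keratins KRT8 and KRT18 were at 4.5 to 17.7 in BT549 but above 4300 in the other lines. Of the other 3 epithelial markers listed, CDH1 was at 63.5 and 50.9 in BT549 EV, 17.7 and 23.8 in OE and at most 7.7 in the other lines, KRT19 did not exceed 18.8, and EPCAM did not exceed 72.1. Of 7 leukocyte markers, 5 were in the table and their summed level was 4166 and 4293 in BT549 EV against 253.6 and 260.3 in OE. CD68, a lysosomal protein, carried that difference (4146 and 4273 against 162.8 and 166.4) and stood at 4277 to 4746 in MDA-MB-231, while the defining marker PTPRC stayed at or below 13.8 and ITGAM and LYZ at or below 1.1 in every library. CD14 went the other way, at 14.2 and 12.2 in BT549 EV and 86.4 and 90.6 in OE.

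In BT549 polysomes, the 4 induced factors fell with TRMT112 OE by a median of 2.72 on the log2 scale, and the 5 receptors and kinases had a median log2 fold change of -0.87. Called lower at an adjusted p-value under 0.05 were 4 of 4 induced factors and 3 of 5 receptors and kinases, and 1 receptor was called higher. Against this, 70.6% of all genes tested were called in BT549, 35% lower and 35.6% higher, so a call is common in this comparison. The median absolute log2 fold change over all genes was 0.705, and 37.7% of genes exceeded 1, as did 4 of the 4 induced factors and none of the receptors and kinases. The libraries of the groups did not overlap for 8 of the 9 genes, beside 82.9% of all genes. The 3 mesenchymal markers listed summed to 50529 and 50729 normalized counts in EV and 19553 and 19002 in OE. VIM made up most of that sum, ZEB1 stood at 2128 and 2155 against 998 and 980.3, and CDH2 at 1069.7 and 1101 against 1105 and 1201. The part of these markers in the results was not tested. In these pooled lysates, fewer cells expressing a gene and less of its mRNA per cell cannot be told apart, and without total RNA libraries neither can mRNA amount and ribosome loading.

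IRF7, the regulator that amplifies type I interferon transcription, had the largest change of the 9 genes. It had 2485 and 2309.8 normalized counts in the EV libraries and 142 and 145 in the OE libraries. The EV libraries stood far above the OE libraries, a 16.7-fold difference (log2 fold change -4.06 with a standard error, SE, of 0.09; adjusted p = 3.04e-21 in the edgeR fit).
IRF1, a transcription factor that drives antigen presentation and growth-restraining genes, had 4012 and 3890 normalized counts in EV and 491 and 488 in OE. Both pairs were tight and widely separated, 8.07-fold apart (log2 fold change -3.01, SE 0.07, adjusted p = 3.25e-21).
STAT2 and IRF9, the ISGF3 components, fell as well. STAT2 had 564 and 532 normalized counts in EV against 103 and 102 in OE (log2 fold change -2.42, SE 0.12, adjusted p = 1.12e-14). IRF9 had 1659 in both EV libraries against 389.8 and 415 in OE (log2 fold change -2.04, SE 0.09, adjusted p = 7.96e-16). In neither gene did the groups overlap. Leaving out any 1 of the 4 BT549 libraries kept the induced factors between -4.12 and -2.00.

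The receptors and kinases moved less in the same cells. IFNGR1, the ligand-binding chain of the type II receptor, had 1602 and 1684 normalized counts in EV and 870.4 and 857 in OE (log2 fold change -0.93, SE 0.06, adjusted p = 1.57e-12). JAK1 had 2397 and 2445 in EV and 1324 and 1271 in OE (-0.90, SE 0.05). TYK2 had 2829 and 2830.3 in EV and 1574 and 1513 in OE (-0.87, SE 0.04). These 3 genes therefore fell by a like amount, 1.83-fold to 1.90-fold, with no overlap between groups.
The type I receptor chains did not share that fall. IFNAR2 had 798 and 814 normalized counts in EV and 808 and 800.3 in OE, overlapping values with a log2 fold change of 0.00 and a 95% interval from -0.18 to 0.17. IFNAR1 had 1115 and 1159 in EV and 1290.1 and 1203 in OE (0.13, SE 0.06, adjusted p = 0.0489). That call was lost in 3 of the 4 fits that left out 1 BT549 library (largest adjusted p = 0.354) and with DESeq2 (adjusted p = 0.129).

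**Figure D1:**
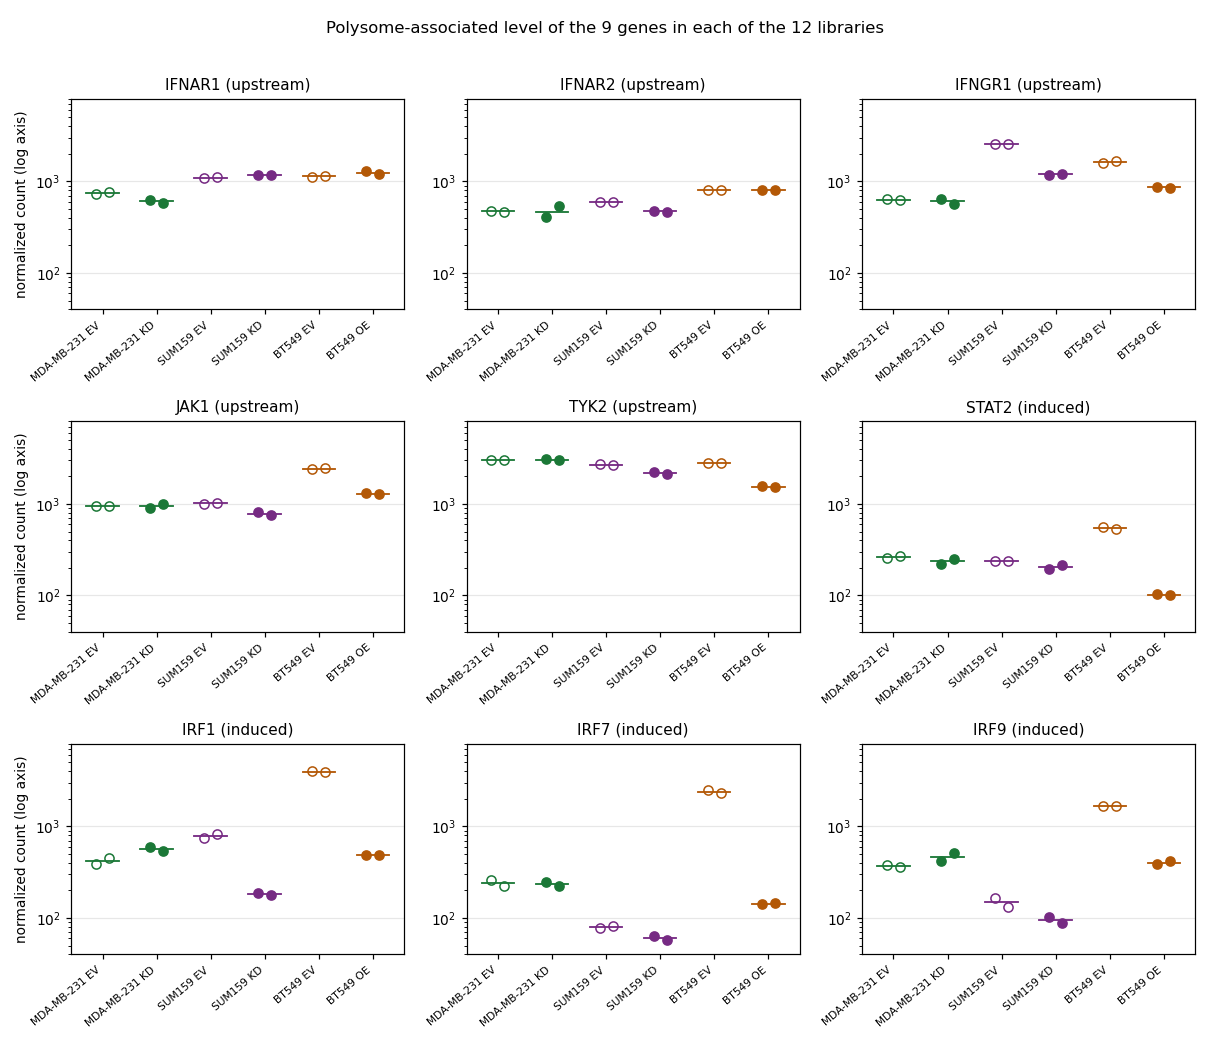
Normalized counts of each gene (log axis) in the 12 libraries, in order of cell line. Open points are EV libraries, filled points KD or OE libraries, and lines the mean of 2. IRF7 stands at 2485 and 2309.8 in BT549 EV and at 142 and 145 in OE, while IFNAR2 overlaps between those groups.

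In SUM159, members of both classes were lower with TRMT112 KD, led by IRF1 and IFNGR1. Called lower were 4 of 5 receptors and kinases and 2 of 4 induced factors, and none was called higher, beside 60.1% of all genes called (31.4% lower, 28.6% higher). The medians were -0.34 for the receptors and kinases and -0.52 for the induced factors, with a median absolute change of 0.464 over all genes. The libraries of the groups did not overlap for 9 of 9 genes, beside 76.7% of all genes.
IRF1 had 742 and 823 normalized counts in EV and 189.5 and 177 in KD, a 4.27-fold difference with no overlap (log2 fold change -2.10, SE 0.09, adjusted p = 2.10e-15). IFNGR1 had 2548 and 2581 in EV and 1167 and 1221 in KD (-1.10, SE 0.05, adjusted p = 1.58e-14). Both exceeded 1 on the log2 scale, as did 22% of all genes.
The other calls were smaller. JAK1 had 1002 and 1029 normalized counts in EV and 807 and 764 in KD (log2 fold change -0.37, adjusted p = 9.35e-06). TYK2 had 2746 and 2643 in EV and 2229 and 2099.9 in KD (-0.32, adjusted p = 5.26e-07), and IFNAR2 had 599.5 and 594 in EV and 474 and 469 in KD (-0.34, adjusted p = 0.00239). Each of these 3 genes was lower in both KD libraries than in both EV libraries.
IRF9 was low in this line, at 166 and 132 normalized counts in EV and 103 and 89.1 in KD (-0.64, SE 0.15, adjusted p = 0.000943). IFNAR1 (log2 fold change 0.09, 95% interval -0.03 to 0.21), STAT2 (-0.22, -0.45 to 0.02) and IRF7 (-0.39, -0.75 to -0.04) did not pass after adjustment over all genes. IRF7 was at the lowest level seen here, 76.7 and 82.4 normalized counts in EV and 63.5 and 57.9 in KD.

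In MDA-MB-231, where the fall in TRMT112 itself was largest, the members changed little. Of 9 genes, 3 were called, 2 higher and 1 lower, beside 37.7% of all genes called (21.2% higher, 16.5% lower). With library sizes alone as the scaling, the higher share of all calls in this line moved from 56.2% to 36.7%.
IRF1 rose from 385 and 447 normalized counts in EV to 598 and 539 in KD, without overlap (log2 fold change 0.45, SE 0.08, adjusted p = 0.000107). IFNAR1 fell from 727 and 759 to 629.6 and 589 (-0.29, SE 0.07, adjusted p = 0.00123). IRF9 had 380.1 and 356 in EV and 419 and 507 in KD (0.33, SE 0.10, adjusted p = 0.00969). IRF1 and IFNAR1 stayed past the threshold whichever library of the line was left out, whereas IRF9 did not without EV replicate 2 (0.29) or KD replicate 2 (0.19), nor with library sizes alone as the scaling (0.24, adjusted p = 0.059).
EV and KD libraries did not overlap for 4 of the 9 genes, beside 66% of all genes.
The remaining 6 genes had log2 fold changes between -0.17 and 0.02. JAK1 and TYK2 were close to 0, with 95% intervals from -0.12 to 0.12 and from -0.06 to 0.10. IFNGR1 (-0.20 to 0.08), IFNAR2 (-0.21 to 0.18), STAT2 (-0.39 to 0.06) and IRF7 (-0.25 to 0.18) had wider intervals.

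**Figure D2:**
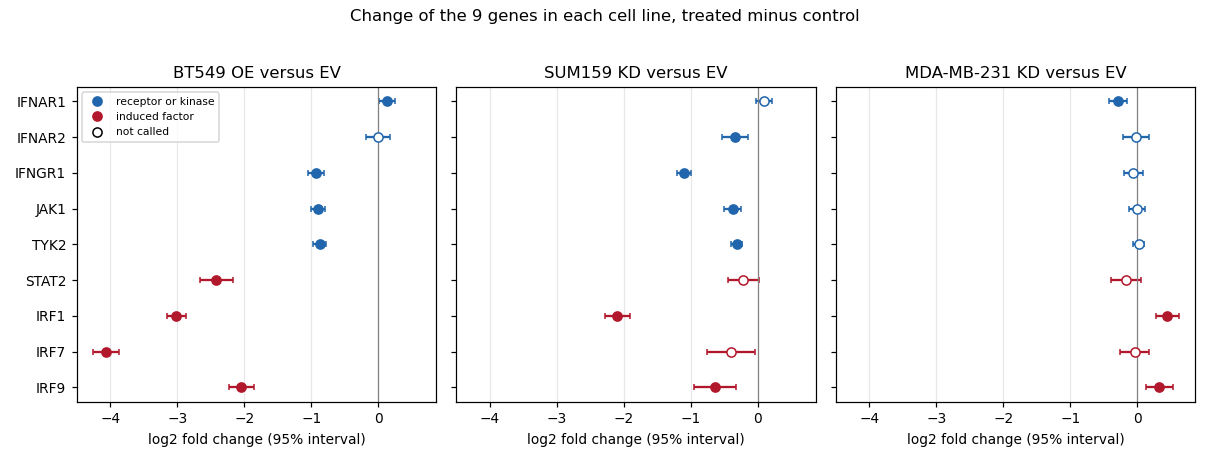
Log2 fold change of each gene, OE or KD minus EV, with its 95% interval, in the 3 cell lines. Blue points are receptors and kinases, red points induced factors, and open points were not called. The induced factors lie between -4.06 and -2.04 in BT549 OE and between -0.17 and 0.45 in MDA-MB-231 KD.

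IRF9 shares exons with a read-through gene, ENSG00000259529, and estimated counts can be split between them in different ways. That gene held 42 to 255 counts per library, and in SUM159 it had 48 and 148 counts in EV and 73 and 169 in KD, up to 164.1% of the IRF9 count. With its counts added to IRF9, a choice made after seeing the data, the log2 fold change in BT549 OE was -2.02 (adjusted p = 1.71e-15). In the KD lines the same sum gave -0.25 in SUM159 (adjusted p = 0.104) and 0.12 in MDA-MB-231 (adjusted p = 0.393), and neither call remained. Adding the read-through gene IFNAR2-IL10RB to IFNAR2 left IFNAR2 on the same side of the threshold in each line. JAK1 overlaps RAVER2 and IRF1 overlaps IRF1-AS1 on the opposite strand, and whether counting used strand is not given in the sources used here.

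The KD effects differed between the lines. The difference, MDA-MB-231 minus SUM159, was called for 7 of 9 genes, 6 higher and 1 lower, beside 50.9% of all genes (27.7% higher, 23.2% lower). IRF1 rose in one line and fell in the other, a log2 difference of 2.55 (SE 0.12, adjusted p = 4.24e-14). IFNGR1, which was called lower in SUM159 KD and not called in MDA-MB-231 KD, differed by 1.04 (SE 0.09, adjusted p = 5.64e-10). JAK1 differed by 0.37 and TYK2 by 0.34, while IFNAR1 differed in the other direction by -0.38. STAT2 (0.05, 95% interval -0.28 to 0.38) and IRF7 (0.36, -0.06 to 0.77) were not called. The TRMT112 fall itself was larger in MDA-MB-231, by 0.47 on the log2 scale.

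The control libraries show the level in each line's transfected and selected control cells. Per length, in TPM (abundance scaled for transcript length and depth, computed here from the counts and GENCODE lengths), IRF1 was the most abundant of the 9 genes in BT549 EV at 134 ± 1.10 (SD, n = 2), followed by IRF7 at 86.1 ± 4.24 and IRF9 at 66.5 ± 1.38. TYK2 led in MDA-MB-231 EV at 61.5 ± 0.58 and IFNGR1 in SUM159 EV at 92.6 ± 0.28. STAT2 was the least abundant in BT549 EV at 8.53 ± 0.44 and in MDA-MB-231 EV at 5.96 ± 0.12, and IRF7 in SUM159 EV at 3.42 ± 0.12. With OE, IRF1 stood at 17.6 ± 0.42 and IRF7 at 5.79 ± 0.09 in BT549, below IFNGR1 (27.4 ± 0.25), IFNAR1 (27.1 ± 0.52) and TYK2 (24.2 ± 0.20).
In normalized counts, BT549 EV exceeded the controls of both other lines for 4 of 4 induced factors. For STAT2 this rested on the gene sum: protein-coding transcripts alone gave a log2 difference of 0.45 from MDA-MB-231 EV (adjusted p = 0.154), and the transcript with most counts gave 0.49 (adjusted p = 0.502) and, from SUM159 EV, 0.71 (adjusted p = 0.329). The median log2 difference was 2.71 from MDA-MB-231 EV and 2.91 from SUM159 EV, and for the receptors and kinases it was 0.77 and 0.07. Of all genes, 79.5% were called against MDA-MB-231 EV (39.1% higher) and 78.4% against SUM159 EV (37.7% higher). Because transcripts not seen in BT549 have no row, sums for the other lines can lack transcripts present only there. IRF7 in BT549 EV was 9.85-fold above MDA-MB-231 EV and 30.1-fold above SUM159 EV, and IRF1 was 3.25 and 2.34 above on the log2 scale. MDA-MB-231 EV and SUM159 EV differed for 7 of 9 genes, 3 higher and 4 lower in MDA-MB-231, beside 75.7% of all genes (36.4% higher, 39.2% lower), with IRF7 higher by 1.61 and IFNGR1 lower by a log2 difference of -2.02. Between BT549 EV and the other controls, the line, medium, vector and selection differ together and cannot be told apart. MDA-MB-231 and SUM159 controls share the vector and the selection, and there line and medium cannot be told apart.

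Ordered by normalized count over the 6 groups, 27 of the 45 neighbouring pairs differed beyond their spread. The neighbours were picked by rank from the tested values themselves, so they are the closest levels of each gene. Over the 15 fixed pairs of groups, 37.7% to 81.2% of all genes were called. That share is not a background for neighbours in rank, whose rate over all genes was not computed. BT549 EV was first for STAT2, IRF1, IRF7, IRF9 and JAK1. With OE, IRF9 was not told apart from MDA-MB-231 KD (adjusted p = 0.0678) or EV (adjusted p = 0.246). IRF1 in OE lay between MDA-MB-231 KD and EV, and differed from both (adjusted p = 0.0195 and 0.0161). STAT2 in OE was last of the 6 groups, 1.01 on the log2 scale under SUM159 KD (adjusted p = 3.47e-07). IRF7 in OE lay under MDA-MB-231 KD by 0.73 and above SUM159 EV by 0.85.
The receptors followed other orders. IFNGR1 ran from SUM159 EV through BT549 EV, SUM159 KD and BT549 OE to MDA-MB-231 EV, each step called, with no call between MDA-MB-231 EV and KD. For IFNAR1, none of the 3 steps among the SUM159 and BT549 groups passed, and both MDA-MB-231 groups lay lower. BT549 OE and EV are not neighbours in that order, and their difference was called, as given above (0.13, adjusted p = 0.0489 in the edgeR fit). TYK2 was highest in MDA-MB-231 and lowest in BT549 OE. Its step from MDA-MB-231 EV to BT549 EV was small (0.09 on the log2 scale, adjusted p = 0.047 with edgeR). That step was not called with RLE scaling (adjusted p = 0.0997 with edgeR) or with DESeq2 (adjusted p = 0.151).

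**Figure D3:**
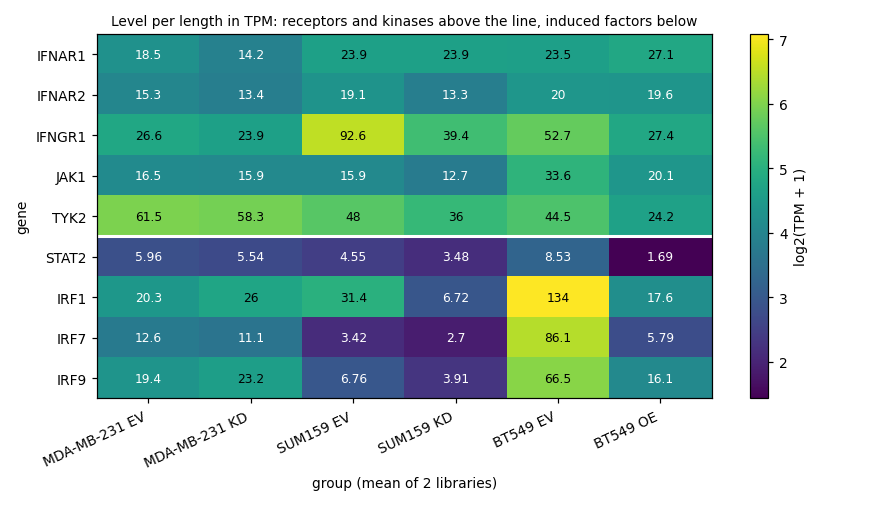
Mean TPM of 2 libraries for each gene (rows) in each group (columns), with the colour on a log2(TPM + 1) scale and the receptors and kinases above the white line. The 3 IRFs are brightest in BT549 EV, at 134, 86.1 and 66.5 TPM.

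The gene sums hide how counts were divided among annotated transcripts. IFNGR1, IFNAR2 and IRF1 were assigned almost entirely to protein-coding transcripts, between 94.7% and 100% of the count in each group. JAK1 differed: protein-coding transcripts took 87.3% and 89% of its counts in BT549 EV and 63.2% and 64.3% in OE, and 92.7% and 77.3% in SUM159 EV against 58.9% and 63.3% in KD. How such shares moved over all genes was not computed. In MDA-MB-231 the JAK1 shares were 86.4% and 78.6% in EV and 81% and 78.9% in KD. In BT549 OE and SUM159 KD, most of the rest went to transcripts with no defined coding sequence (33% and 31% of the gene), while in MDA-MB-231 these took 5.27% and 5.78% and transcripts annotated for nonsense-mediated decay took more. All JAK1 counts without a defined coding sequence were on JAK1-202 (ENST00000465376.7, 3144 bases). Named after its values were seen, it had 204.4 and 153.6 counts in BT549 EV and 398.7 and 365.7 in OE. Tested singly it was not called (log2 fold change 1.13, SE 0.76, adjusted p = 0.343), where 22.1% of 64066 transcripts were.
Counting protein-coding transcripts only, an alternative chosen after seeing the data, gave a larger fall for JAK1, -1.32 in BT549 OE and -0.82 in SUM159 KD. In SUM159 KD it also brought IRF7 past the threshold, at -1.03 (adjusted p = 0.0173), and the difference of its KD effects between the lines to 1.02 (adjusted p = 0.0454). STAT2 likewise went to -3.58 in BT549 OE (adjusted p = 2.59e-07). One of its protein-coding transcripts (ENST00000314128.9, 4405 bases), also named after its values were seen, had 202 and 139.7 counts in EV and 3.2 and 1.4 in OE (log2 fold change -6.30, SE 0.75, adjusted p = 0.000139).
The replicates disagreed on some of these shares, so estimates of single transcripts are loose. Protein-coding transcripts took 5.2% of STAT2 in one OE library and 40% in the other, and 16.5% of IRF7 in one SUM159 KD library and 75.7% in the other. IFNAR1 was spread over many transcripts, with 50.8% of its counts over all libraries on protein-coding ones and 38.1% on transcripts annotated for nonsense-mediated decay. Its small change in MDA-MB-231 KD was -0.06 when only protein-coding transcripts were counted (adjusted p = 0.774).

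**Figure D4:**
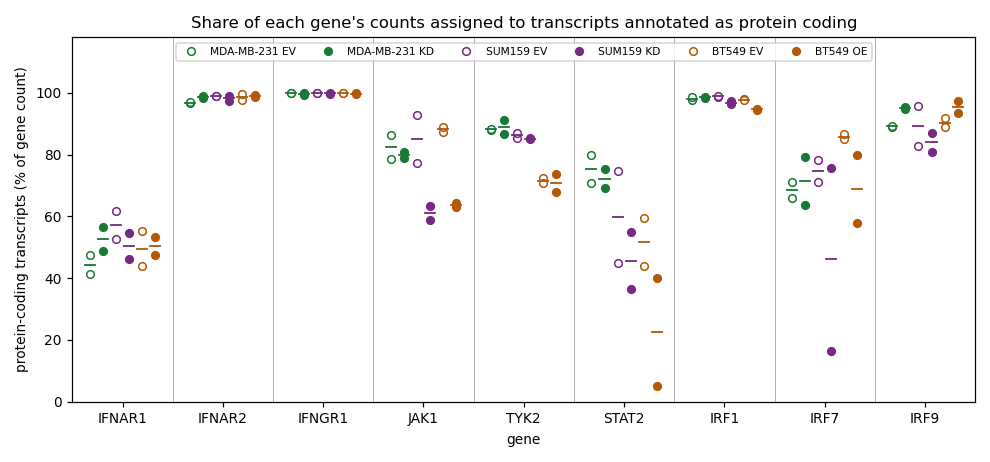
Percent of each gene's counts assigned to protein-coding transcripts, for each library (points, open for EV) and as the mean of 2 (lines). JAK1 stands at 87.3% and 89% in BT549 EV and at 63.2% and 64.3% in OE, and the 2 OE libraries disagree for STAT2, at 5.2% and 40%.

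The rest of the pathway was followed through 75 other genes of interferon signalling, of which 56 were in the table and 48 were tested. In BT549 OE, 28 were called lower and 10 higher (median log2 fold change -0.46), in SUM159 KD 31 lower and 4 higher (-0.48), and in MDA-MB-231 KD 12 lower and 15 higher (-0.02). The shares called were 79.2%, 72.9% and 56.2% of these genes, beside 70.6%, 60.1% and 37.7% of all genes. By role, 5 of the 5 other STATs tested were lower in BT549 OE and in SUM159 KD. Of 12 genes that activate IRFs, 10 were lower and 1 higher in BT549 OE, and 5 lower and 3 higher in SUM159 KD. The other roles were less one-sided in BT549 OE: 1 of 3 other IRFs, 1 of 2 receptors and 1 of 2 kinases were lower. Of 8 cofactors there, 3 were lower and 3 higher. Of all genes, 35% were lower in BT549 OE and 31.4% in SUM159 KD. Negative regulators were divided in BT549 OE, with 7 lower and 6 higher of 16.
USP18, the ISG15 protease that restrains type I receptor signalling, had 5379 and 5382 normalized counts in BT549 EV and 34.3 and 20.4 in OE (log2 fold change -7.61, SE 0.12, adjusted p = 1.99e-24). TLR3, a sensor of double-stranded RNA, had 359 and 409.7 against 7.8 and 6.8 (-5.70), and STAT5A 424 and 395 against 21 and 18.1 (-4.38). These falls exceeded those of every member. Higher in OE were SOCS1, an inhibitor of JAK kinases (18.6 and 17.7 against 37.7 and 45.3, log2 fold change 1.18), the coactivator CREBBP (0.98) and the STAT5 target CISH (0.96). CISH was low and its OE libraries disagreed, at 17.5 and 26.6 normalized counts in EV against 56.5 and 29.4 in OE (SE 0.35).
In SUM159 KD, STAT5A (-3.35), IRF5 (-2.32) and TLR3 (-2.31) fell most, and the adaptors MYD88 (0.40) and MAVS (0.40) and the STAT-inhibiting PIAS2 (0.36) were higher. IRF5 was low, at 40.4 and 48.3 normalized counts in EV and 4 and 13 in KD. STAT5A went from 77.7 and 85.5 normalized counts to 7.1 and 8.6. In MDA-MB-231 KD it was higher instead (968 and 915 in EV, 1340 and 1285 in KD, log2 fold change 0.48), as were the kinase IKBKE (0.64) and STAT6 (0.37). Lower there were USP18 (-0.56), SOCS2 (-0.31) and MYD88 (-0.31).

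**Figure D5:**
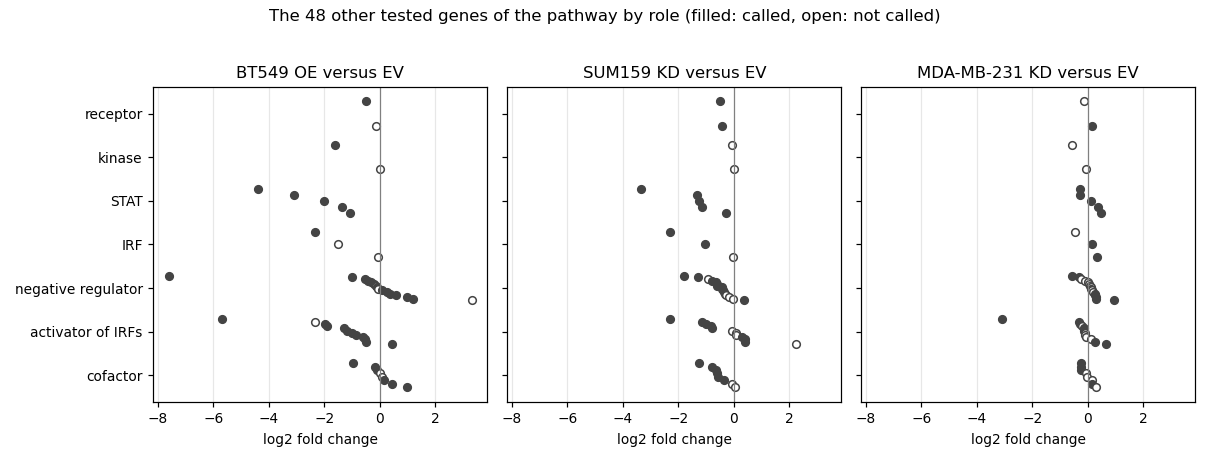
Log2 fold changes of the 48 other tested pathway genes, grouped by role on the vertical axis, for BT549 OE, SUM159 KD and MDA-MB-231 KD against EV. Filled points were called. The leftmost point in BT549 OE is USP18 at -7.61, and the STATs all lie left of 0 in BT549 and SUM159.

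Over the 12 libraries, the genes with the profile most like each member were ranked among 12589 genes by Pearson correlation of log2 CPM, as a description, since these libraries share 6 groups and few distinct levels. For the induced factors these were PHF11 (0.987) and HERC6 (0.986) for STAT2, CAMSAP2 (0.987) and RFX5 (0.984) for IRF1, FZR1 (0.995) and CBR3 (0.994) for IRF7, and CNP (0.988) and KLHL21 (0.988) for IRF9. For the kinases they were USP1 (0.989) and C1R (0.986) for JAK1 and TUBB4B (0.993) and IER5 (0.992) for TYK2. For the receptors they were PNRC2 (0.995) and NDUFB9 (0.994) for IFNAR1, TRA2B (0.979) and CEP43 (0.976) for IFNAR2, and KPNA4 (0.982) and LENG9 (0.976) for IFNGR1. Among the members themselves, IRF7 and IRF9 were most alike (0.951), and JAK1 followed IRF1 (0.918) more closely than it followed TYK2 (0.011).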

How the data were processed

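Polysome RNA from 12 libraries (6 groups of 2) was analysed. Per the labels and methods, the authors used Trimmomatic for trimming, HISAT2 for alignment (GRCh38), SAMtools and Partek. The counting tool, annotation and strand setting are not given in the sources used here. The labels name oligo(dT) enrichment, the methods rRNA depletion. The values deposited are expected counts, 1 row per Ensembl transcript. A question mark in 10254 of 201932 rows (5.08%), in MDA-MB-231 and SUM159 columns only, was taken as 0. No row is 0 in every BT549 library, so transcripts not seen in BT549 have no row. No column was left unused (0).

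Transcripts were matched to GENCODE 44 without version numbers (79.6% of rows, 99.25% to 99.41% of each library's counts), summed per symbol and rounded. Depth was 22954226 to 27434677 counts per library. Genes passing filterByExpr were given TMM factors, and the quasi-likelihood test of edgeR 4.0.16 was applied (group means, 6 residual degrees of freedom) in R 4.3.3, with Benjamini-Hochberg adjustment over 16538 genes and calls at 0.05. Normalized counts are counts divided by the effective library size relative to its mean. Replicates differed by more than sampling noise. Alternatives were RLE scaling, library size only, DESeq2 1.42.0, 2 other filters, a replicate block, each line alone, other transcript rules and leaving out each library, and, after seeing the data, protein-coding transcripts only and read-through genes added. Code was tested on simulated data. Python 3.11.15, pandas 2.3.3 and matplotlib 3.10.9 prepared tables and figures.

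The members and lists were chosen with earlier results of these data known. Named genes are the 9 members, the 2 genes most correlated with each over the libraries (mean of at least 50 counts, prior count 2), up to 3 called pathway genes per direction and contrast with the largest change, and TRMT112.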

Additional observations from a re-analysis of the deposited data

Results flagged for a closer look

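For 7 of the 9 genes, the effect of TRMT112 KD differed between MDA-MB-231 and SUM159 in the test of the difference itself (edgeR, adjusted over all genes). The differences, MDA-MB-231 minus SUM159 on the log2 scale, were 2.55 for IRF1, 1.04 for IFNGR1, 0.97 for IRF9, 0.37 for JAK1, 0.34 for TYK2, 0.33 for IFNAR2 and -0.38 for IFNAR1. Of all genes tested, 50.9% were called in this comparison. IRF1 was higher in both MDA-MB-231 KD libraries and lower in both SUM159 KD libraries than in the controls of the line, and its difference ranged from 2.45 to 2.67 when 1 library was left out.

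Some of the smaller differences depended on the processing. With edgeR, that of IFNAR2 was not called under RLE scaling (0.29, adjusted p = 0.0635) or library sizes alone (0.27, adjusted p = 0.0889). Nor was it with a mean of at least 50 counts (0.29, adjusted p = 0.0528) or protein-coding transcripts only (0.31, adjusted p = 0.0722). The transcript with most counts (0.51, adjusted p = 0.284) and DESeq2 (0.3, adjusted p = 0.0899) gave no call either. The call of IFNAR2 (adjusted p = 0.0408) was lost in 7 of 8 fits that left out a library, with values from 0.12 (without MDA-MB-231 KD replicate 2) to 0.52, and with IFNAR2-IL10RB added (0.26, adjusted p = 0.079). The call of IRF9 (adjusted p = 9.1e-05) was lost when the read-through gene was added to it (0.37, adjusted p = 0.0664), and that of IFNAR1 (adjusted p = 8e-04) when only protein-coding transcripts were counted (0.00, adjusted p = 1).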

How the results depend on the processing

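Of 1008 alternative values of the 9 genes over 7 comparisons, 941 kept their direction and side of the threshold, or passed it neither time, 52 lost a call, 8 gained one and 7 changed direction. The falls of STAT2, IRF1, IRF7 and IRF9 in BT549 OE held under every alternative run, their median lying between -3.57 and -2.69, and that of the receptors and kinases between -0.91 and -0.85. The induced median in SUM159 KD ranged from -1.09 (transcript with most counts) to -0.32 (read-through genes added). Testing only the transcript with most counts, adjusted over 64066 transcripts, gave 0 members called in MDA-MB-231 KD with edgeR (2 at an unadjusted p under 0.05, and 3 for the gene sums with edgeR or DESeq2) and 4 other pathway genes (27), 3 members in SUM159 KD (6), 3 for the difference of the KD effects (7), 4 for MDA-MB-231 EV against SUM159 EV (7) and 15 neighbouring levels (27).

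Direction changed for IFNAR1 in MDA-MB-231 KD (0.89) and in the difference of the KD effects (1.05) with that transcript, and in the latter with protein-coding transcripts (0.00). In BT549 EV against SUM159 EV it changed with library sizes alone for IFNAR1 (-0.17) and TYK2 (-0.14), and for TYK2 also with protein-coding transcripts (-0.25) and the transcript with most counts (-0.25); the cause was not tested. TYK2 in BT549 EV against MDA-MB-231 EV (-0.09) lost its call without any 1 of 4 libraries. The higher share of calls in SUM159 KD was 47.6%, or 51.9% with RLE.

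Replicate numbers did not pair the libraries (correlation of deviations -0.044 to 0.032). With the replicate block, 7 members were called in BT549 OE, where IFNAR1 was lost (adjusted p = 0.0572), 7 in SUM159 KD, where IRF7 was gained (-0.39, adjusted p = 0.0415), 3 in MDA-MB-231 KD, 7 for the difference of the KD effects and 28 neighbouring levels. With 2 libraries per group, a difference whose printed interval spans 0 was not told apart from 0, and a change within that interval remains possible.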

Other observations

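The interferon genes themselves were nearly absent from the polysome libraries. Of 20 ligand genes, 5 were in the table and none passed the filter on low counts. IFNB1, named after its values were seen, had 8 and 16 counts in the BT549 EV libraries and 0 in the other 10 libraries, and no other ligand gene had more than 2 counts in any library. Transcripts not seen in BT549 have no row, so ligand transcripts present only in MDA-MB-231 or SUM159 would not appear here.

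RAVER2, which overlaps JAK1 on the opposite strand, had 436 and 428 counts in BT549 EV and 130 and 152 in OE, and 639 and 647 in SUM159 EV against 558 and 588 in KD. In MDA-MB-231, where JAK1 had a log2 fold change of 0.00, RAVER2 had 527 and 563 counts in EV and 381 and 378 in KD. IRF1-AS1, opposite IRF1, had 89 counts in each BT549 EV library and 15 and 40 in OE.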
